A study of Mus musculus with 18 samples.

Results

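The early response of Ubc9 knockout dendritic cells to bacterial lipopolysaccharide (LPS) was measured by comparing 3 arrays of knockout cells at 1 h of LPS with 3 arrays of knockout cells left unstimulated, which are 6 of the 18 arrays of the series and were chosen by their genotype and stimulation labels. All cells were dendritic cells grown from mouse bone marrow for 10 days in medium with 10% serum and 20 ng/ml of GM-CSF, and the labels give 4-hydroxytamoxifen at 100 nM on day 6 to every group, so the controls of either genotype had received it too. LPS was used at 10 ng/ml. The groups named below are unstimulated knockout cells, knockout cells at 1 h and, for side-by-side values, knockout cells at 6 h, unstimulated wild-type cells and wild-type cells at 1 h, with 3 arrays each that the series design calls biological replicates. The labels write the genotypes as UBC9KO and UBC9WT and name no Cre driver, no strain and no animal age, and they do not say which arrays came from which animal.

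LPS is a component of the outer membrane of Gram-negative bacteria. It is bound by Cd14 and Ly96 and sensed through the receptor Tlr4, whose adaptors lead to the kinases that release the transcription factor NF-kB from its inhibitors and that activate the MAP kinases. The genes transcribed within the first hour are mostly immediate-early transcription factors, cytokines and chemokines, and the inhibitors, phosphatases and RNA-decay factors that later limit the same pathways. A branch through the adaptor Ticam1 leads to interferon beta, which acts back on the cells through its receptor and raises antiviral genes. Ubc9 is the enzyme that joins SUMO, a small protein, to lysines of its targets, many of them nuclear proteins such as transcription factors and their corepressors.

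Values are log2 signals from Affymetrix Mouse Gene ST arrays, and a difference of 1 is 2-fold. In both knockout groups, the Pearson correlation of array pairs lay between 0.983 and 0.994 across genes, which are not independent replicates. Knockout replicate 3 stood apart from the other knockout arrays before and after LPS: on the first principal component, which held 51.3% of the variance, it lay at 17.6 unstimulated and 21.8 at 1 h, while the other knockout arrays of these groups lay between −18.2 and 0.1. Of the dendritic cell markers, Itgax (mean 10.68), H2-Aa (11.40), Cd74 (11.44) and Csf2ra (10.82) gave signals in unstimulated knockout cells far above 3.83 to 4.02, the array means of 16 germline genes taken as a low-signal reference, while Xcr1 (3.60) and Clec9a (4.28), which mark one subset, and Zbtb46 (5.09) and Flt3 (5.0) lay near it. The macrophage markers Adgre1 (10.88), Csf1r (10.57) and Mertk (9.55) also gave high signals. In such bulk RNA, a smaller number of cells of a type and less RNA in each cell cannot be told apart.

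After 1 h of LPS, knockout cells had raised mRNAs of neutrophil-attracting chemokines, inflammatory cytokines, interferon beta, immediate-early transcription factors and inhibitors of NF-kB. Fewer genes were called lower than higher. In limma, with Benjamini-Hochberg adjustment over 19938 genes and calls at an adjusted p under 0.05, 133 genes were called (0.667% of those tested). Of these, 107 were higher (0.537%) and 26 lower (0.13%). The changes were at least 2-fold for 61 rises and 3 falls, at least 4-fold for 22 rises and at least 8-fold for 11 rises. The rises ran from 0.36 to 4.33 and the falls from −0.38 to −1.40, while the median over all genes was −0.03. All 107 called rises lay above every unstimulated array and went up in each of the 3 same-numbered pairs, and all 26 called falls did the reverse, but the same arrays made the calls. Over all genes, 5.34% lay above every unstimulated array and 9.1% below, and 16.2% went up and 26.5% went down in all 3 pairs.

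The 3 pairs gave responses of like size. The median change of the called rises was 1.07 in pair 1, 1.21 in pair 2 and 1.17 in pair 3. The same arrays had made those calls, which favours pairs that move alike. Over all genes, 83, 87 and 92 rose at least 2-fold in pairs 1, 2 and 3. With the replicate number as a block, limma called 309 genes, 203 higher (1.02%) and 106 lower (0.532%), among them 106 of the 107 rises and all 26 falls, and Rbm7 was not called (adjusted p = 0.051). A fit of only the 6 knockout arrays called 46 genes, 44 higher and 2 lower. Of the 48 called genes that the naming rule picks, 24 were not called in that fit. Among them were Ifnb1, Fosb, Cxcl3, Zfp36, Dusp1, Gpr84, Icam1 and Gadd45g. Leaving out a single array moved the count of called genes by over 1.5 times for unstimulated replicate 1 (87 called) and for 1 h replicate 2 (78 called). The count of falls moved by over 1.5 times without any of 4 arrays: 7 were called without unstimulated replicate 1, 17 without 1 h replicate 1, 8 without 1 h replicate 2 and 16 without 1 h replicate 3.

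**Figure D1:**
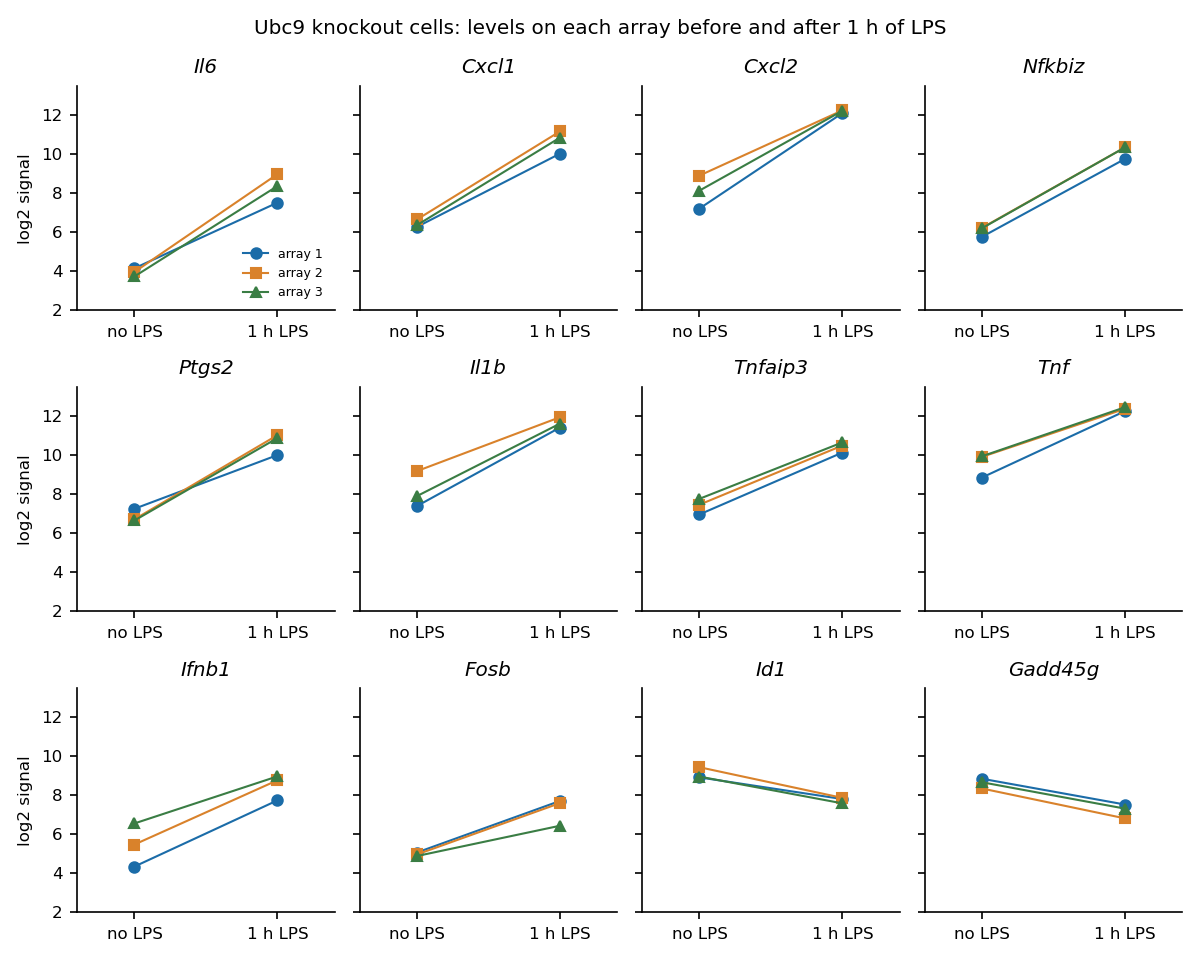
The log2 signal of 12 genes in unstimulated knockout cells and at 1 h of LPS, with a line for each of the 3 same-numbered array pairs. Il6 starts near the low-signal reference at 3.74 to 4.16 and reaches 7.52 to 8.98, and Id1 and Gadd45g fall in every pair.

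NF-kB acts at promoters through the kB motif, a short element of 10 bases that the factor's subunits bind as pairs. RefSeq promoters of the assembly GRCm38.p6, taken from 250 bases before to 50 after each transcript start, were found for 82 of the 107 genes that rose, which have 117 promoters between them. The kB motif was searched on both strands by its usual consensus and was in 27.4% of these promoters, against 9.55% of all 19177 promoters of 15614 genes. The palindromic cyclic AMP response element, TGACGTCA, was in 7.69% against 2.37%, the serum response motif (CArG box) in 5.13% against 1.41%, and the core of the interferon-stimulated response element, GAAANNGAAA, in 1.71% against 3.27%. Only 17 promoters of 15 genes that fell were found, with the kB motif in 11.8% and the other motifs in none. Promoters of the same gene can overlap, so 1 site can be counted more than once, and shares per gene were not computed. Motifs of different kinds can overlap, and a match is a stretch of letters, not a shown binding site.

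The stretches below hold the kB matches before the start of the first 8 named rises that had one, in order of fold change. Other genes with rises in the same range, among them Nfkbiz, Ptgs2, Il1b and Tnf, had no match before the start or no promoter found. The stretches are shown so that the matches of genes with like rises can be compared letter by letter. The same holds for the 3 neighbouring chemokine genes. Capitals mark the matches, and all are read along the gene's own strand.
Il6, chr5:30013045-30013099, plus strand: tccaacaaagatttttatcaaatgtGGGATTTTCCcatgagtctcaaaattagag
Cxcl1, chr5:90891149-90891204, plus strand: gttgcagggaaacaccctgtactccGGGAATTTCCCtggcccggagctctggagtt
Cxcl2, chr5:90903777-90903832, plus strand: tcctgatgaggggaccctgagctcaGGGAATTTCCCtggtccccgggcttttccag
Cxcl3, chr5:90786003-90786058, plus strand: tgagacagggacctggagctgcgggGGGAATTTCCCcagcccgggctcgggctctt
Ifnb1, chr4:88522881-88522935, minus strand: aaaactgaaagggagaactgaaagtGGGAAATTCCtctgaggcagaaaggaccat
Tnfaip3, chr10:19015411-19015560, minus strand: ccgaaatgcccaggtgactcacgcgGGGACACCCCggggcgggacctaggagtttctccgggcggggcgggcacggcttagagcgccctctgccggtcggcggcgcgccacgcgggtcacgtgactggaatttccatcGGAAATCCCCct
Ccrl2, chr9:111057545-111057599, minus strand: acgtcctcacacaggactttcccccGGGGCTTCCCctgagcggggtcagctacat
Nfkbid, chr7:30422156-30422382, plus strand: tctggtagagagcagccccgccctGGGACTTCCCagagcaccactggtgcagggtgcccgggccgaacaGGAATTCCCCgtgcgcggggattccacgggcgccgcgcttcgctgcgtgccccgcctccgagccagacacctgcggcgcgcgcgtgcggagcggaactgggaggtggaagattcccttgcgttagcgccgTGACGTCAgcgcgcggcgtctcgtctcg
Cxcl1, Cxcl2 and Cxcl3, which lie in one cluster on chromosome 5, held the same match, GGGAATTTCC, beginning 71, 97 and 73 bases before their starts. It was matched on both strands with an offset of 1 base, so 11 bases are in capitals. Il6 held GGGATTTTCC at 44 bases and Ifnb1 GGGAAATTCC at 116 bases before the start. Tnfaip3 held a match at 125 bases and another at 12 bases, and Nfkbid held matches at 226 and 181 bases and the cyclic AMP element at 51 bases before its start. Of the 38 called rises that the text names by its rule, 33 were in the promoter table and 14 held a kB match before the start.

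The transcription factors of the immediate-early class are made from genes that need no new protein for their transcription. Of 29 measured, 12 rose, 0 fell and 17 were not called, with a median change of 0.37, against −0.03 over all genes. For this list and those below, the shares over all genes were 0.537% higher and 0.13% lower. With the replicate block they were 1.02% and 0.532%. Fosb, a partner of Jun proteins in AP-1, stood at 5.07, 4.97 and 4.89 on the unstimulated arrays and at 7.71, 7.60 and 6.44 at 1 h. The groups do not overlap, and replicate 3 had the lowest value at 1 h. Fosb rose by 2.27 ± 0.22 (SE, n = 3 per group, limma adjusted p = 2.2e-05).

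Junb, another AP-1 subunit, went from 7.82, 7.81 and 8.01 to 9.28, 9.38 and 9.39, a rise of 1.47 ± 0.10 (adjusted p = 5.5e-07). The spread between its arrays was small beside the change. Csrnp1, a nuclear protein first described as an axin-induced gene, went from 7.02, 7.07 and 6.98 to 8.26, 8.67 and 8.75 (1.53 ± 0.18). Ier3, which encodes a regulator of survival under stress, went from 9.66, 9.53 and 9.46 to 10.83, 11.02 and 10.96 (1.39 ± 0.12). In Fosb and in these 3 genes, the lowest value at 1 h lay more than 1 log2 unit above the highest unstimulated value.

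The zinc finger factor Egr1 rose by 1.71 ± 0.21, from a mean of 6.50 to 8.21, and its relative Egr2 by 0.80 ± 0.16, from 10.68 to 11.49. The small Maf protein Maff rose by 1.57 ± 0.23, the antiproliferative gene Btg2 by 1.15 ± 0.17, Ier2 by 0.88 ± 0.13 and Fosl2, a Fos relative, by 0.77 ± 0.11. The nuclear receptor Nr4a1 started at a low signal, 4.98, 4.63 and 4.53, and stood at 6.36, 6.24 and 5.11 at 1 h, with replicate 3 again lowest (1.19 ± 0.24, adjusted p = 0.024). Bhlhe40, a repressor of the helix-loop-helix family, had the smallest rise of the list, 0.36 ± 0.08. Fos and Jun themselves were not called: Fos stood at 6.81, 7.16 and 7.23 unstimulated and at 6.97, 6.92 and 7.05 at 1 h, and Jun differed by 0.01 ± 0.13. Atf3 (−0.04 ± 0.23) and Myc (−0.41 ± 0.33) were not called either.

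The NF-kB list held 16 measured genes, of which 9 rose, 0 fell and 7 were not called, with a median change of 0.84. Most of those that rose encode proteins of the IkB family, which includes inhibitors of NF-kB. Nfkbiz, a nuclear IkB protein needed for a set of secondary response genes that includes Il6, went from 5.77, 6.23 and 6.21 to 9.76, 10.35 and 10.35. Its rise of 4.09 ± 0.23 (adjusted p = 8.4e-08) was 17.0-fold, and the 3 pairs differed little, at 4.00, 4.12 and 4.14.

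Tnfaip3 encodes A20, an enzyme that edits ubiquitin chains and stops signalling to NF-kB. It stood at 6.97, 7.47 and 7.77 before LPS and at 10.14, 10.50 and 10.66 at 1 h, a rise of 3.03 ± 0.21 (adjusted p = 5.5e-07). Nfkbid, another nuclear IkB protein, went from 5.99, 6.27 and 6.49 to 8.51, 8.80 and 8.65 (2.40 ± 0.22). Nfkbia, the classical cytoplasmic inhibitor, was already at 8.97, 9.44 and 9.14 and reached 11.18, 11.28 and 11.26 (2.05 ± 0.17, adjusted p = 4.1e-06). The groups do not overlap in any of these genes, and the smallest pair difference among these 4 was 1.83, for Nfkbia.

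Smaller rises were seen for Nfkbie (1.44 ± 0.21), for Bcl3 (1.27 ± 0.23), which is a nuclear IkB protein as well, and for Tnip1 (0.59 ± 0.08), a partner of A20. The subunits Rel and Rela rose by 1.04 ± 0.12 and 0.52 ± 0.10. Nfkb2 (0.59 ± 0.14, adjusted p = 0.088) and the signalling adaptor Traf1 (0.94 ± 0.21, adjusted p = 0.065) were not called, but were with the replicate block (adjusted p = 0.018 and 0.008). Relb stood at 0.57 ± 0.15 (adjusted p = 0.14). On every knockout array the list's mean moved alike, from 7.67, 8.04 and 8.03 to 8.93, 9.25 and 9.25.

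Of 10 MAP kinase phosphatases, 2 rose and 0 fell (median 0.36), and with the replicate block 4 rose and 1 fell. Dusp1, which dephosphorylates p38 and JNK, went from 8.98, 9.08 and 9.50 to 10.26, 10.52 and 10.76. It rose by 1.33 ± 0.19 (adjusted p = 0.0015), with no overlap between the groups. The rise of Dusp8 was 0.54 ± 0.12 (adjusted p = 0.045), a call that ended without unstimulated replicate 2 or 3 or any one of the 3 arrays at 1 h (adjusted p = 0.055 to 0.23). Dusp4 (1.22 ± 0.29, adjusted p = 0.079) and Dusp16 (0.61 ± 0.19, adjusted p = 0.27) were called with the block, at adjusted p = 0.0014 and 0.0067, and so was Dusp6 as a fall (−0.53 ± 0.15, adjusted p = 0.18, 0.013 with the block).

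Of 10 factors that act on the decay of cytokine mRNAs, 3 rose and 0 fell, with a median of 0.24. Zfp36 encodes tristetraprolin, which binds AU-rich elements. It stood at 8.72, 8.83 and 9.45 unstimulated and at 10.21, 10.31 and 10.55 at 1 h (1.35 ± 0.16, adjusted p = 0.00021). Zc3h12a encodes Regnase-1, an endonuclease that cleaves Il6 mRNA, and went from 6.49, 6.24 and 6.25 to 7.95, 7.98 and 8.01 (1.65 ± 0.11, adjusted p = 4.3e-07). Its relative Zc3h12c rose by 1.49 ± 0.17. The stabilising factor Elavl1 and the roquins Rc3h1 and Rc3h2 were not called.

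The list of inflammatory cytokines and mediators had 28 measured members, of which 10 rose and 0 fell, with a median of 0.32. Il6, which drives acute-phase and T cell responses, stood at 4.16, 3.97 and 3.74 before LPS and at 7.52, 8.98 and 8.37 at 1 h. All 3 unstimulated values lay near the low-signal reference, so the measured change may be only a lower bound, and replicate 1 was lowest at 1 h. The measured rise was 4.33 ± 0.50 (adjusted p = 0.00014).

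Ptgs2, the inducible cyclooxygenase of prostaglandin synthesis, went from 7.26, 6.72 and 6.66 to 10.01, 11.03 and 10.88 (3.76 ± 0.30, adjusted p = 1.9e-06). Replicate 1 had both the highest unstimulated and the lowest 1 h value, and its pair difference was 2.75 against 4.30 and 4.22. Il1b, the precursor of a pyrogenic cytokine, went from 7.40, 9.19 and 7.91 to 11.42, 11.95 and 11.62 (3.50 ± 0.35), with replicate 2 highest at both times. Tnf, which signals through its receptors to NF-kB, was already at 8.86, 9.92 and 9.95 and stood at 12.26, 12.38 and 12.46 at 1 h (2.79 ± 0.21, adjusted p = 1.6e-06). The arrays lay closer together at 1 h than before LPS for Il1b and Tnf, and farther apart for Ptgs2.

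Il1a, the other pyrogenic form of interleukin 1, rose by 2.14 ± 0.17 from a mean of 9.76. Ereg, a ligand of the EGF receptor family, went from 3.88, 4.12 and 4.02, near the low-signal reference, to 6.98, 7.88 and 6.59 (3.14 ± 0.41). Tnfsf9, the ligand of the costimulatory receptor 4-1BB, went from 5.37, 5.81 and 5.99 to 8.06, 9.04 and 9.34 (3.09 ± 0.34). Osm and Lif, cytokines that signal through the same receptor chain as Il6, rose by 1.89 ± 0.21 and 1.28 ± 0.19.

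Il23a, which encodes the p19 subunit of interleukin 23, stood at 4.48, 4.22 and 4.08 and at 5.42, 5.73 and 4.91 after 1 h (1.09 ± 0.19, limma adjusted p = 0.0081). Its unstimulated values lay near the low-signal reference, so the measured change may be only a lower bound. Its partner subunit Il12b had a value of 1.27 ± 0.37 (adjusted p = 0.21, 0.017 with the block). Il10 (0.21 ± 0.14), Il12a (−0.19 ± 0.20), Nos2 (−0.08 ± 0.26) and Csf2 (0.32 ± 0.19) were not called, and their unstimulated means lay between 3.18 and 5.06.

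Of 21 chemokines, 3 rose and 0 fell, and all 3 were ligands of the neutrophil receptor Cxcr2 (median of the list 0.42). Cxcl1 went from 6.28, 6.66 and 6.37 to 10.03, 11.17 and 10.85, a rise of 4.25 ± 0.34 (adjusted p = 2.1e-06). Cxcl2 went from 7.22, 8.91 and 8.14 to 12.11, 12.25 and 12.23 (4.11 ± 0.30, adjusted p = 1.1e-06); its arrays lay far closer together at 1 h than before. Cxcl3 went from 6.44, 8.26 and 7.60 to 10.02, 10.96 and 10.61 (3.10 ± 0.47, adjusted p = 0.0022). These are the 3 genes whose promoters share the kB match shown above, and replicate 1 was lowest at both times in each of them.

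The other chemokines were not called without the block. Ccl3 stood at a mean of 12.36 with a difference of 0.37 ± 0.12, and Ccl4 at 11.42 with 0.70 ± 0.28 (adjusted p = 0.47, 0.0042 with the block). Cxcl10, an interferon-inducible ligand of Cxcr3, stood at 7.67, 9.69 and 10.71 unstimulated and at 10.00, 11.18 and 11.60 at 1 h. The unstimulated arrays spread widely and the groups overlapped, and the change of 1.57 ± 0.58 was not called (adjusted p = 0.40, 0.097 with the block). Ccl5 (0.42 ± 0.32), Ccl2 (0.58 ± 0.39), Cxcl9 (0.43 ± 0.59) and Cxcl11 (0.34 ± 0.62) were not called either.

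**Figure D2:**
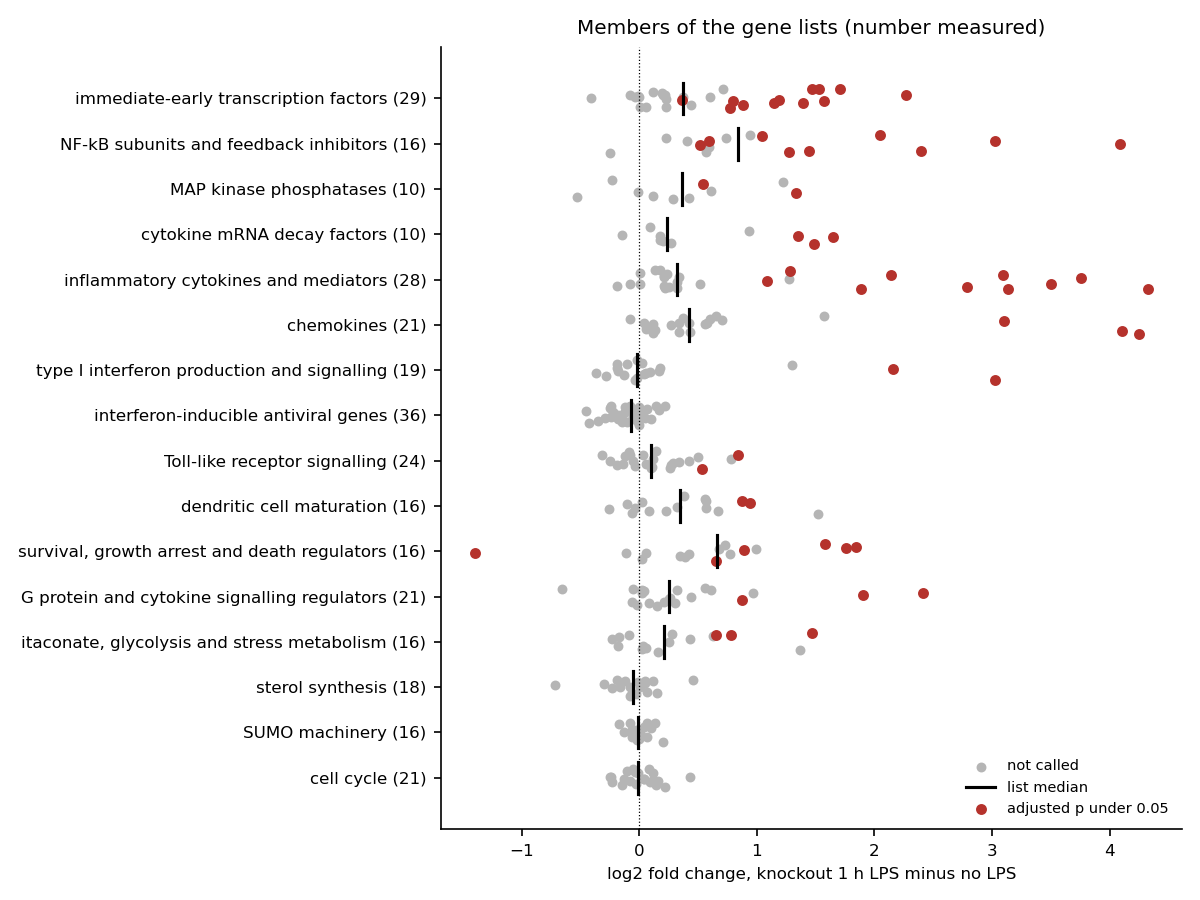
The log2 fold change (knockout cells, 1 h of LPS minus unstimulated) of every measured member of 16 gene lists, with one point per gene, called genes in red and a bar at each list's median. The NF-kB list has the highest median, 0.84, and the interferon-inducible, sterol, SUMO and cell cycle lists hold no called member.

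Ifnb1 encodes interferon beta. It stood at 4.35, 5.48 and 6.56 on the unstimulated arrays and at 7.74, 8.77 and 8.97 at 1 h, so that both before and after LPS replicate 1 was lowest and replicate 3 highest. The groups do not overlap, and the 3 pairs rose by 3.39, 3.29 and 2.40. The change was 3.03 ± 0.40 (95% interval 2.18 to 3.87, limma adjusted p = 0.0005). A fit of only the 6 knockout arrays did not call it (adjusted p = 0.17). Socs3, an inhibitor of cytokine receptor signalling, rose by 2.16 ± 0.22, from 6.99, 7.56 and 7.48 to 9.15, 9.63 and 9.74. These were the 2 called genes among 19 of type I interferon production and signalling, whose median was −0.02. Irf1 stood at 1.30 ± 0.31 (adjusted p = 0.079, 7.6e-05 with the block), and the kinase Tbk1, the factors Irf3 and Irf7 and the receptor chains Ifnar1 and Ifnar2 were not called.

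No antiviral gene of the interferon-inducible list was called at 1 h. Of 36 measured, 0 were called in either direction by limma, 0 had an unadjusted p under 0.05 and 0 were called with the block. Their changes lay between −0.45 and 0.22 with a median of −0.07. The 2 largest were those of Oas2 (−0.45 ± 0.37) and Oas1a (−0.43 ± 0.30), which make the messenger that activates RNase L. The level before LPS was high in the knockout cells: 31 of the 36 were called higher in unstimulated knockout than in unstimulated wild-type cells, against 1.8% of all genes, with a median difference of 2.72. The median level of the list was 9.80 in unstimulated knockout cells, 9.69 at 1 h and 6.65 in unstimulated wild-type cells. The knockout arrays differed more from each other than from their own pair in this list, with means of 9.04, 9.54 and 10.40 unstimulated and of 8.88, 9.57 and 10.25 at 1 h.

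Ifnb1, Cxcl10 and Acod1 had the same order of the unstimulated arrays as that list, with replicate 1 lowest and replicate 3 highest, and the cell cycle list had the reverse order, with means of 8.36, 7.96 and 6.73. The macrophage and monocyte markers were at 8.59, 8.88 and 9.63 before LPS and at 8.60, 8.83 and 9.54 at 1 h. Their part in the results was not tested. None of the 84 measured markers of 9 cell types was called at 1 h by limma, 5 had an unadjusted p under 0.05 (8.56% of all genes had), and 0 were called with the block.

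**Figure D3:**
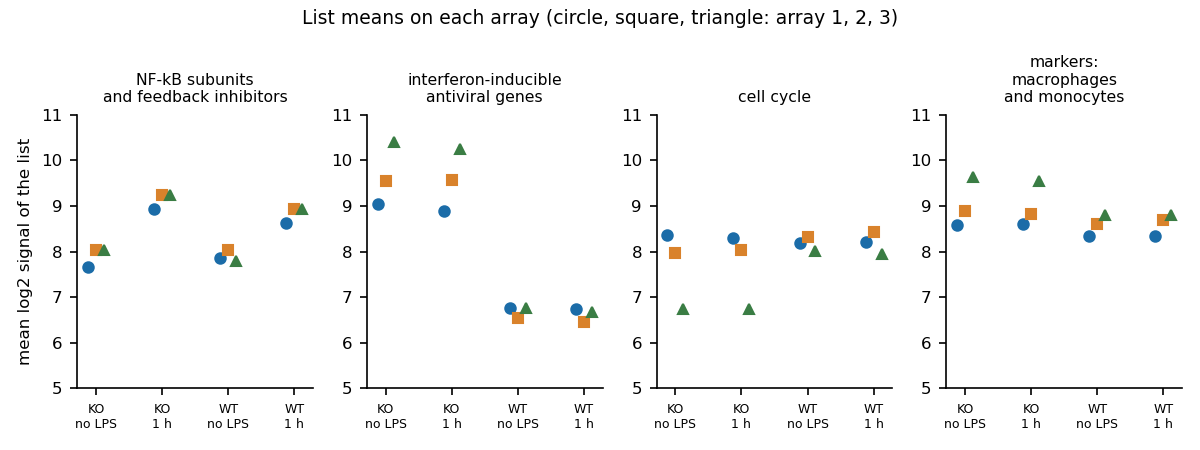
Mean log2 signal of the members of 4 gene lists on each array of 4 groups, where KO is knockout, WT is wild type and the markers stand for arrays 1, 2 and 3. The NF-kB list moves up at 1 h in both genotypes, while the interferon-inducible, cell cycle and macrophage lists separate the knockout arrays from each other; the interferon-inducible list stands at 9.04, 9.54 and 10.40 unstimulated and at 8.88, 9.57 and 10.25 at 1 h.

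The receptors and adaptors of the pathway gave few calls. Of 24 genes of Toll-like receptor signalling, 2 rose and 0 fell (median 0.10), and with the block 4 rose. Of all genes, 0.537% rose, and 1.02% with the block. Tlr4 went from a mean of 10.71 to 10.82 (0.11 ± 0.11, adjusted p = 0.91), and its coreceptor Cd14 went from a mean of 10.40 to 11.18. Cd14's change of 0.78 ± 0.25 was not called (adjusted p = 0.29), while the block, which removes the spread between the pairs, called it (adjusted p = 0.001), with pair differences of 0.68, 0.68 and 0.96. Map3k8, the kinase that links NF-kB inhibitors to ERK, rose by 0.84 ± 0.11, from 8.20, 8.34 and 8.05 to 9.12, 9.08 and 8.93. Traf6, the ubiquitin ligase below the Toll-like receptors, rose by 0.53 ± 0.09 (adjusted p = 0.0076), a call that ended without 1 h replicate 2 (adjusted p = 0.063). The adaptors Myd88 (0.03 ± 0.13), Tirap (−0.08 ± 0.12) and Ticam1 (−0.12 ± 0.08) were not called.

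Of 16 genes of dendritic cell maturation, 2 rose and 0 fell (median 0.35), and with the block 4 rose. Icosl, the ligand of the T cell costimulator ICOS, went from 7.24, 7.27 and 7.24 to 8.15, 8.39 and 8.03 (0.94 ± 0.14), and the adhesion molecule Icam1 from 9.0, 9.29 and 9.24 to 9.89, 10.17 and 10.07 (0.87 ± 0.14). Cd83, a surface marker of mature dendritic cells, had the list's largest change, 1.52 ± 0.38, which was not called (adjusted p = 0.10) except with the block (0.00018). Cd80 had 0.67 ± 0.30, Cd40 0.38 ± 0.30, Cd86 0.08 ± 0.51 and the migration receptor Ccr7 0.23 ± 0.39, none of them called without the block.

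Of 16 regulators of survival, growth arrest and death, 5 rose and 1 fell (median 0.66), and with the block 10 rose. The 3 Gadd45 genes encode proteins that bind stress kinases and cell cycle factors, and 2 of them rose while 1 fell. Gadd45a went from 8.34, 8.24 and 8.38 to 10.02, 10.10 and 10.37 (1.84 ± 0.15, adjusted p = 1.9e-06), and Gadd45b rose by 1.76 ± 0.34. Gadd45g fell from 8.85, 8.35 and 8.67 to 7.53, 6.82 and 7.32 (−1.40 ± 0.24, adjusted p = 0.0074), the largest fall of all genes. The call of Gadd45g ended without unstimulated replicate 1 (adjusted p = 0.055) or 1 h replicate 2 (0.063). Phlda1 rose by 1.58 ± 0.21, the kinase Pim1 by 0.89 ± 0.18 and the caspase inhibitor Birc3 by 0.65 ± 0.12. Birc3 was not called without unstimulated replicate 1 or 1 h replicate 2 or 3 (adjusted p = 0.056 to 0.072).

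Among 21 regulators of G protein and cytokine signalling, 3 rose and 0 fell (median 0.25), and with the block 5 rose and 1 fell. Ccrl2, an atypical receptor that presents chemerin, went from 7.79, 8.02 and 8.78 to 10.43, 10.59 and 10.79 (2.41 ± 0.23, adjusted p = 2.1e-05). Gpr84, a receptor for medium-chain fatty acids, went from 6.34, 7.39 and 7.18 to 8.46, 9.19 and 8.98 (1.90 ± 0.32, adjusted p = 0.0056, and 0.051 without 1 h replicate 2). Cish, an inhibitor of cytokine receptors, rose by 0.87 ± 0.13.

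Of 16 genes of itaconate, glycolysis and stress metabolism, 3 rose and 0 fell (median 0.21), and with the block 5 rose. Marcksl1, an actin regulator that stands in this list, rose by 1.47 ± 0.25, the sugar transporter Slc2a6 by 0.78 ± 0.14 and mitochondrial superoxide dismutase Sod2 by 0.65 ± 0.13. The calls of Slc2a6 and Sod2 ended without unstimulated replicate 1 or without 1 h replicate 2 or 3, and that of Sod2 also without unstimulated replicate 2 (adjusted p = 0.052 to 0.17). Acod1, which makes itaconate, stood at 8.95, 10.54 and 11.43 and at 11.12, 11.80 and 12.11 at 1 h, with overlap between the groups. Its change of 1.37 ± 0.41 was not called (adjusted p = 0.23, 0.032 with the block).

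No gene was called in 3 other lists by limma. Sterol synthesis (18 genes, median −0.05) had 2 genes with an unadjusted limma p under 0.05, as had 8.56% of all genes. With the block Fdps, which makes farnesyl diphosphate, was called lower (−0.72 ± 0.31, adjusted p = 0.016 with the block and 0.52 without). The SUMO machinery (16 genes, median −0.01, largest change 0.20 for the SUMO-targeted ubiquitin ligase Rnf4) had 0 genes with an unadjusted p under 0.05. The cell cycle list (21 genes, median −0.01) had 0, with the proliferation marker Mki67 at 0.43. Over the 16 response lists together, which hold 315 different genes, 57 were called (18.1%, against 0.667% of all genes). The lists were chosen with LPS responses in view and with earlier results of these data known, so this share is no independent support.

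The called falls were fewer and smaller than the called rises. Id1, a helix-loop-helix inhibitor of differentiation factors, went from 8.92, 9.44 and 8.96 to 7.81, 7.87 and 7.59 (−1.35 ± 0.20, adjusted p = 0.002). Thbd, the anticoagulant receptor thrombomodulin, went from 8.23, 7.47 and 7.45 to 6.96, 6.15 and 6.43 (−1.20 ± 0.25, adjusted p = 0.031), and was not called without unstimulated replicate 1 or 1 h replicate 2 or 3 (adjusted p = 0.13 to 0.19). With Gadd45g, these were the 3 falls of at least 2-fold, and none of the groups overlap.

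The cannabinoid receptor gene Cnr2 fell by 0.87 ± 0.19 from a mean of 8.10, and its call ended without any one of the knockout arrays other than 1 h replicate 1 (adjusted p = 0.057 to 0.23). Pwwp2b, a chromatin-associated protein, fell by 0.79 ± 0.13, and was at adjusted p = 0.052 without 1 h replicate 2. Ogt, which puts N-acetylglucosamine on proteins, fell by 0.64 ± 0.10, and the homeobox gene Hhex by 0.61 ± 0.11. Rsrp1 (−0.66 ± 0.13), Lratd2 (−0.70 ± 0.13) and Ripor1 (−0.58 ± 0.09) complete the 10 largest falls of named genes. Hhex, Rsrp1 and Lratd2 each lost their call in 4 of the 6 fits that left out 1 knockout array.

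Wild-type cells were measured at the same time, and 60 genes were called in them at 1 h, 51 higher (0.256%) and 9 lower (0.0451%). With the block 133 were called, and without wild-type 1 h replicate 2 or 3 the count was 34 or 28. Of the 107 knockout rises, 105 were above 0 in wild-type cells, the exceptions being Bhlhe40 (−0.01) and a predicted gene, and 46 were called there too. Those 46 are 43% of the knockout rises and 90.2% of the wild-type rises. The median change of the 107 was 1.14 in knockout and 0.72 in wild-type cells, and 102 were larger in knockout cells, but they had been chosen on the knockout arrays. Of the 51 wild-type rises, 41 had a larger value in knockout cells, with medians of 1.59 and 1.36. They were chosen by their wild-type change, but with a variance per gene that the knockout arrays share. Most of them are also knockout rises, and genes are not independent replicates, so these counts do not test a difference. Over all genes, the median difference of the responses, knockout minus wild type, was −0.04.

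The difference between the responses of the genotypes was then tested directly. No gene was called by limma, and 0 were called with the block, with array weights or with low signals left out. At an unadjusted limma p under 0.05 there were 592 genes (2.97%, 1202 with the block), 227 with a larger and 365 with a smaller value in knockout cells. Without the block, this share is below the 0.05 that would pass if no gene differed. A place among the 592 is thus no evidence of a difference by itself. Of the 29 members of the immediate-early list, 12 were among the 592, 11 of them with a larger value in knockout cells.

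Ifnb1 had the largest difference of those. It stood at 3.80, 3.80 and 3.36 in unstimulated wild-type cells and at 4.03, 4.27 and 4.20 at 1 h, near the low-signal reference, a change of 0.51 ± 0.40. The difference between the genotypes' responses was 2.52 ± 0.56 (95% interval 1.32 to 3.71, limma adjusted p = 1, and 0.25 with the block). Since the wild-type values lie near the low-signal reference, this size is less certain than the interval shows. Fosb went from 5.59, 5.34 and 5.35 to 6.32, 6.34 and 6.26 in wild-type cells, a change of 0.88 ± 0.22 that was not called (limma adjusted p = 0.19, and 0.063 with the block), and its difference was 1.39 ± 0.31. Without knockout 1 h replicate 3, which had the lowest knockout value, that difference was 1.80 ± 0.15 and called (adjusted p = 4.5e-05), the only call among the fits that left out 1 array of the 4 groups. Ptgs2 differed by 1.69 ± 0.42, Zfp36 by 0.86 ± 0.23 and Il23a by 1.03 ± 0.27, and none of these was called. In knockout cells Fosb and Il23a also started at low signals, so the sizes of their differences are less certain too.

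Other genes had differences near 0 or larger values in wild-type cells. Tnf changed by 2.98 ± 0.21 in wild-type cells, a difference of −0.19 (95% interval −0.82 to 0.45), and Il1a by 2.27 ± 0.17 (−0.13, interval −0.63 to 0.37). Cxcl2 rose by 4.72 ± 0.30 there, from a lower start, with a difference of −0.61 (interval −1.51 to 0.29). At 1 h, Cxcl2 and Tnf stood at means of 12.20 and 12.37 in knockout cells, where the highest of all values was 13.71. Whether signals this high limit the differences was not tested. The 5 rises called in wild-type and not in knockout cells were Acod1, Cxcl10, Tlr2, Pnrc1, which binds nuclear receptors, and Hcar2, a receptor for hydroxybutyrate and niacin. For Acod1 the wild-type change was 2.34 ± 0.41 and for Cxcl10 2.98 ± 0.58. The means of both in unstimulated knockout cells, 10.31 and 9.35, lay above every wild-type array at 1 h. With the block, Acod1 was called in knockout cells too (adjusted p = 0.032), and the other 4 were not (0.053 to 0.32). The differences of these 5 were not called.

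Of the 26 knockout falls, 23 were below 0 in wild-type cells and 4 were called there (15.4%): Ogt, Pwwp2b, Rsrp1 and Zfc3h1, whose product takes part in nuclear RNA decay. The 3 that were not below 0 were Ankrd53, Fam3a and a predicted gene. The median of the 26 was −0.56 in knockout and −0.29 in wild-type cells.

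**Figure D4:**
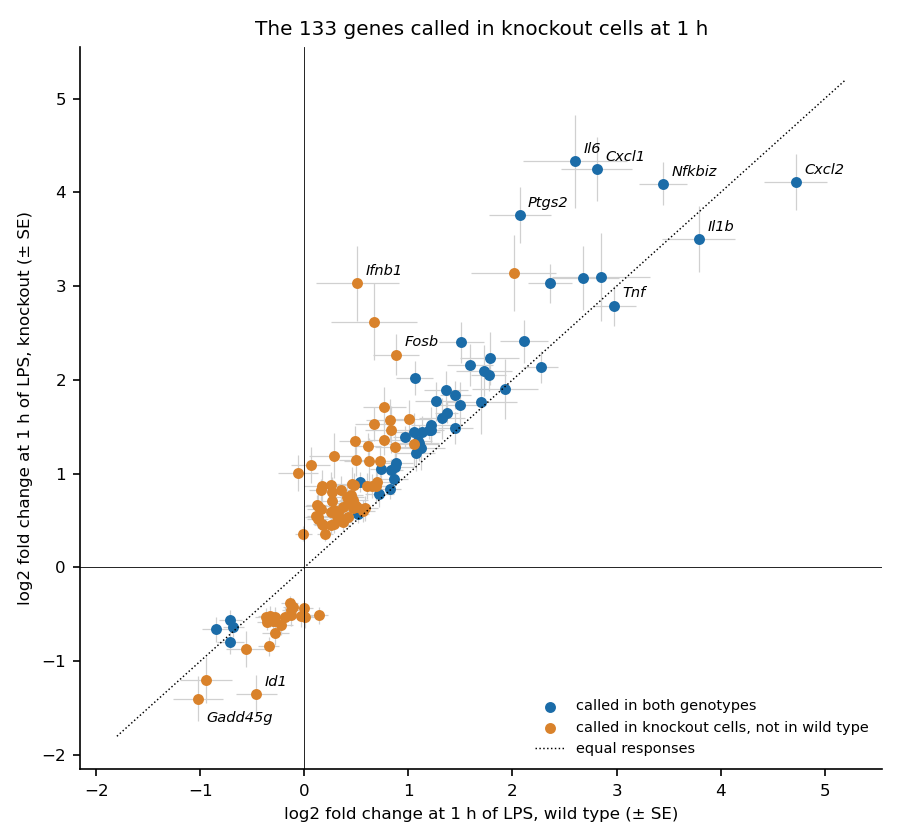
The log2 fold change at 1 h in wild-type cells (horizontal) against knockout cells (vertical) for the 133 genes called in knockout cells, with standard errors from the fit as bars and a dotted line of equal responses. Ifnb1 lies far above the line at 3.03 against 0.51, Cxcl2 and Tnf lie below it, and no difference passed the test over all genes.

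The 6 h arrays of knockout cells show where the 1 h values lie in time, and share the 1 h arrays with the comparison above. Of the 107 rises, 29 were called higher and 33 lower at 6 h than at 1 h, and the other genes were not called. Over all genes, 12.2% were called higher and 17.1% lower at 6 h than at 1 h, and the 107 had been chosen on the same 1 h arrays. Fosb was back at 5.08, 4.97 and 5.17 at 6 h, which is 2.18 below its 1 h mean (adjusted p = 2.7e-06). Nfkbid (mean 7.03), Gadd45a (8.58) and Dusp1 (9.28) were also called lower than at 1 h.

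Il6 stood at 11.90, 12.10 and 11.89 at 6 h, 3.68 above 1 h (adjusted p = 4.7e-05), and Ifnb1 at 12.04, 11.98 and 11.48, 3.34 above. Ptgs2 (mean 12.42), Ccrl2 (11.53) and Slc2a6 (11.08) were also called higher. Cxcl1 (10.75), Cxcl2 (12.26), Tnf (12.47) and Tnfaip3 (10.44) differed from 1 h by 0.10 or less and were not called. Cxcl2 and Tnf already lay high in the range of values at 1 h (highest of all values 13.71), and a limit on their signal was not tested. Of the 26 falls, 5 were called still lower at 6 h, a share near that of all genes, among them Cnr2 with a mean of 4.50, Pwwp2b with 6.32 and Thbd with 5.67. Another 7 were called higher than at 1 h, among them Lratd2 (8.10), Hhex (8.53) and Rsrp1 (9.89).

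**Figure D5:**
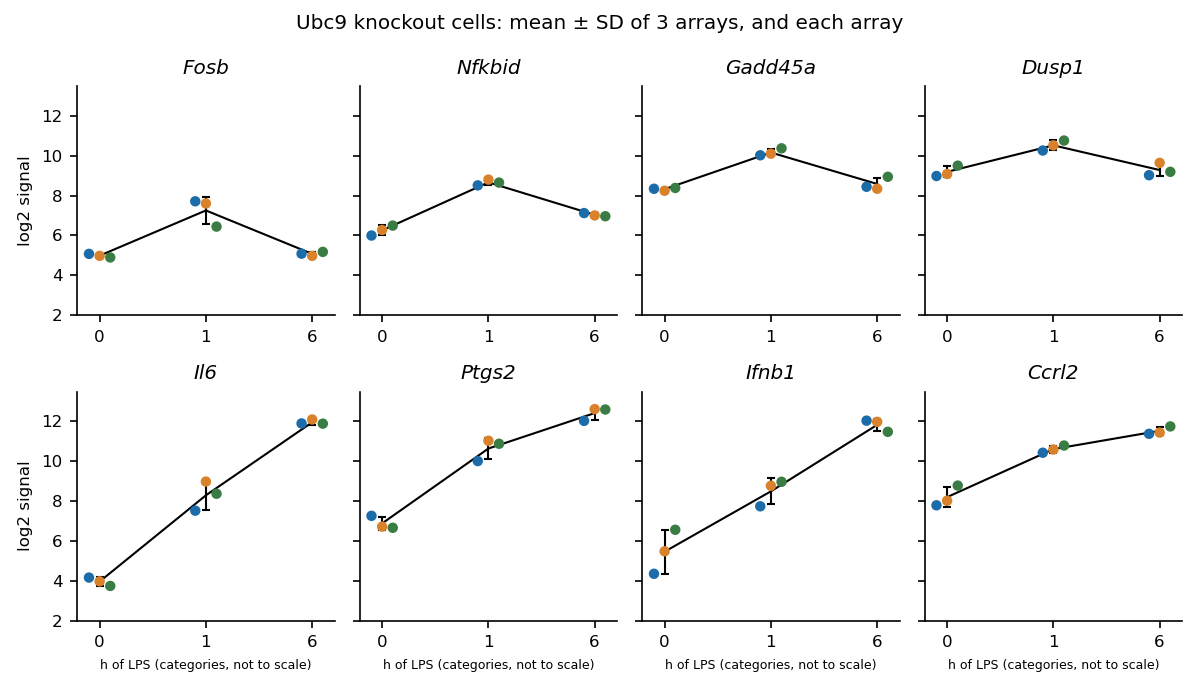
Log2 signal of 8 genes in knockout cells unstimulated (0), at 1 h and at 6 h of LPS, where points are arrays 1 (blue), 2 (orange) and 3 (green) and the line and bars give the mean ± SD of 3 arrays. The upper genes are lower at 6 h than at 1 h, and the lower genes are higher.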

How the data were processed

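Per the labels' protocols, 200 ng of total RNA per sample was hybridised to Affymetrix arrays of the Mouse Gene ST design. The deposited values are signals per probe set on a log scale, taken as log2 (highest value 13.71), and the submitters' processing notes name RMA without a version. The log base is not stated. Arrays give no read depth, and their number limits the precision.

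Of 35556 probe sets, 21789 had 1 gene symbol in the platform annotation, 1621 had several and 12146 were not listed. For the 999 genes with several probe sets the one with the highest mean was kept, which left 19938 genes. Group means of all 18 arrays were fitted in limma 3.58.1 (R 4.3.3) as 6 groups, which left 12 residual degrees of freedom, and variances were moderated. Tests were two-sided with Benjamini-Hochberg adjustment at a threshold of 0.05, and errors are standard errors of the fit. The fit was tested on simulated data with independent noise. Those data held no replicate effect, so that test does not cover same-numbered arrays that move together. The sources used here do not tie arrays to animals, so p-values measure only the spread between these samples.

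Replicate numbers come from the sample titles. On values centred on group means, all 18 same-numbered pairs within a genotype correlated positively (r from 0.15 to 0.80). All 18 arrays correlated best with their own number, so the numbers were taken as pairs within a genotype. The pairs enter only the pair differences and the fit with the replicate block. The main fit has no term for them, so some genes it did not call, such as Cd14, were called with the block. The fit with the replicate block has 8 residual degrees of freedom.

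The comparison, the gene lists (454 entries, 417 measured) and the naming rule were chosen with earlier results of these data known. The rule names the 15 largest rises and 10 largest falls among called genes whose 3 pairs move alike, up to 4 called members of each response list by adjusted p (in lists with no call, 2 members at most, by size of change), up to 5 genes called in each direction for the difference of responses, and Ifnb1, Tlr4 and Cd14. The level of the targeted gene is not reported here, so it gives no check of the genotype labels. Predicted genes are counted, not named. Other genes given with values were chosen after their values were seen. Promoters were taken from RefSeq (GRCm38.p6) by gene. Alternatives were the replicate block, the 2 knockout groups alone, array weights, a filter on low signal (mean under 5), median centring, renewed quantile normalization, a variance trend, another probe set per gene, promoters without the bases after the start, and leaving out arrays or pairs. The 2 knockout groups with the block, and all probe sets, were added after seeing the data.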

Additional observations from a re-analysis of the deposited data

Results flagged for a closer look

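Some probe sets that the comparisons do not use were called too. When all 35556 probe sets were fitted together in limma, 51 of the 12146 that the platform annotation does not list were called at 1 h in knockout cells, 25 higher and 26 lower. That is 0.42%, against 0.475% of all probe sets, and those with 1 gene symbol had 102 higher and 16 lower. Of the 1621 probe sets with several gene symbols, 0 were called. The 51 are unnamed here.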

How the results depend on the processing

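Against 133 called genes (107 higher, 26 lower, 64 at least 2-fold), the replicate block gave 309 (203 higher, 106 lower), array weights 281 (172 higher, 109 lower), the 2 knockout groups alone 46 (44 higher, 2 lower, 39 at least 2-fold) and the 2 groups with the block, chosen after seeing the data, 266 (195 higher, 71 lower). The filter on low signal (146), median centring (133, with 115 higher and 18 lower), renewed quantile normalization (135), the variance trend (124) and the lowest-mean probe set (128) moved the count less, and all probe sets, also chosen after seeing the data, gave 169. With the replicate block, wild-type cells had 133 calls, and the rises per list were 4 MAP kinase phosphatases, 4 Toll-like receptor signalling genes, 4 maturation genes, 10 survival regulators, 5 G protein and cytokine signalling regulators and 5 itaconate and metabolism genes. With the 2 groups alone they were 4 immediate-early factors, 5 NF-kB genes, 1 MAP kinase phosphatase, 1 type I interferon gene, 1 Toll-like receptor gene, 1 survival regulator (0 fell), 1 G protein regulator and 0 itaconate genes; with the block added, 4 phosphatases, 5 maturation genes, 8 survival regulators, 6 G protein regulators and 5 itaconate genes. Array weights gave 4 Toll-like receptor, 9 survival and 6 itaconate genes, and the variance trend and the lowest-mean probe set 1 phosphatase each. Leaving out 1 unstimulated or 1 h knockout array, or a pair of them, gave 66 to 117 called genes, 59 to 99 higher and 6 to 18 lower. In those fits the rises ranged over 0 to 2 phosphatases, 1 to 2 Toll-like receptor genes and 0 to 2 maturation genes. They also ranged over 2 to 6 survival regulators (0 to 1 fell) and 0 to 5 itaconate genes. Leaving out 1 unstimulated or 1 h array of either genotype gave 28 to 68 calls in wild-type cells and 0 to 1 for the difference of responses. Of 48 named genes called, 24 were not called by limma with the 2 groups alone (adjusted p from 0.058 to 0.39). Whichever single unstimulated or 1 h knockout array was left out, 35 stayed called. None of the 48 changed direction under any alternative run for them, and these left out no wild-type or 6 h array alone. Changes of sign in named genes that were not called were not counted. The cause of these shifts was not tested. In the bases before the start alone, the kB motif was in 23.9% of promoters of genes that rose against 8.19% of all. The 3 arrays per group limit which small changes can be called.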

Other observations

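Leaving out predicted genes, 100 genes rose in knockout cells at 1 h, of which 56 stood in a gene list and 44 did not. The 10 largest of those 44 were singled out after their values were seen. Gem, a small GTPase that binds calcium channel subunits, rose by 2.10 ± 0.27 (SE, n = 3 per group, limma adjusted p = 0.00036), and Prdm1, the transcriptional repressor Blimp-1, by 2.02 ± 0.18, from 6.34, 6.63 and 6.47 to 8.13, 8.74 and 8.64. Prdm1 rose by 1.06 ± 0.18 in wild-type cells and stood at 7.54 in knockout cells at 6 h. Trim13, a ubiquitin ligase of the endoplasmic reticulum, rose by 1.77 ± 0.21 and Rasgef1b, an exchange factor for Ras proteins, by 1.73 ± 0.25.

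Nlrp3, the inflammasome sensor that leads to the maturation of interleukin 1, went from 7.70, 8.11 and 7.41 to 9.10, 9.70 and 9.18 (1.59 ± 0.22). Clec4e, a receptor for mycobacterial glycolipids, rose by 1.52 ± 0.19 and stood at 12.09 at 6 h, above its 1 h values of 10.74, 10.98 and 10.92. Flrt3, a cell adhesion protein, rose by 1.47 ± 0.12, the transcription factor Ets2 by 1.44 ± 0.17, the pseudokinase Trib1 by 1.36 ± 0.16 and the cyclic AMP phosphodiesterase Pde4b by 1.35 ± 0.14. In wild-type cells the log2 changes of these 10 genes ran from 0.77 for Trib1, which was not called there (adjusted p = 0.051 in limma, and 0.0039 with the replicate block), to 1.73 for Gem.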
